A study of Mus musculus with 6 samples.

Results

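Bdh1, Oxct1, Acat1, Slc16a1, Mpc1, Mpc2, Ldha and Ldhb, 8 genes of ketone body and monocarboxylate metabolism, were followed in RNA-seq counts of infarcted mouse hearts. They were found by matching the Ensembl ID of each row, without its version, to these symbols, which gave 8 of the 55401 genes in the table. All 8 passed the filter on low counts, which kept 16757 genes. Mice of both groups carried a myocardial infarction, a region of heart muscle killed by loss of its blood supply, and the comparison asks how exposure to mild cold changes gene expression in such hearts. The mild cold group (3 libraries) was housed at 16 °C over 7 days, and the room temperature group (3 libraries) at 22 °C. Strain, sex, age and the interval after infarction are not stated in the labels, and uninfarcted hearts were not analysed here. Nor do the labels say that libraries 1 to 3 of a group are different animals, and the p-values therefore describe the spread among libraries, part or all of which may be technical.

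Ketone bodies are made mainly by the liver and burned by heart muscle. In the mitochondrial matrix, beta-hydroxybutyrate is oxidised to acetoacetate by the dehydrogenase BDH1, acetoacetate is joined to coenzyme A by the transferase encoded by Oxct1, and the thiolase ACAT1 splits the product into acetyl-CoA. Lactate, pyruvate and ketone bodies cross the plasma membrane through the proton-linked transporter MCT1, encoded by Slc16a1. Lactate dehydrogenase is a tetramer of LDHA and LDHB subunits that interconverts pyruvate and lactate, with LDHB the main subunit of adult heart. MPC1 and MPC2 together form the carrier that takes pyruvate across the inner mitochondrial membrane.

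Start regions are shown for the 3 members with the largest fold changes, Bdh1, Mpc2 and Ldhb, and for Ldha and Slc16a1, whose windows held the searched motifs most often. Each is RefSeq sequence of build GRCm38.p6, from 250 bases before to 50 bases after the annotated start, and RefSeq windows matched 7 of the 8 members (not Acat1). Capitals mark matches on either strand to an E-box (CACGTG), the core of a hypoxia response element (ACGTG, which every E-box contains), the core of a cyclic AMP response element (TGACG) or a GC box (GGGCGG). The windows lie at chr16:31422047-31422346 on the plus strand (Bdh1, the upstream of its listed starts), chr1:165461010-165461309 on the plus strand (Mpc2), chr6:142507908-142508207 on the minus strand (Ldhb), chr7:46845554-46845853 on the plus strand (Ldha, the upstream of its listed starts) and chr3:104638414-104638713 on the plus strand (Slc16a1).
Bdh1: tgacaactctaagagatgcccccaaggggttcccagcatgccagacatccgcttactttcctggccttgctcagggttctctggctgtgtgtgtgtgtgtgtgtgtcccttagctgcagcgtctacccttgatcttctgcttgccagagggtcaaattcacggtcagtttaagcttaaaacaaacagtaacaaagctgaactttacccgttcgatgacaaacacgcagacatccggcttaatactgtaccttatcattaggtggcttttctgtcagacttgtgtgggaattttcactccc
Mpc2: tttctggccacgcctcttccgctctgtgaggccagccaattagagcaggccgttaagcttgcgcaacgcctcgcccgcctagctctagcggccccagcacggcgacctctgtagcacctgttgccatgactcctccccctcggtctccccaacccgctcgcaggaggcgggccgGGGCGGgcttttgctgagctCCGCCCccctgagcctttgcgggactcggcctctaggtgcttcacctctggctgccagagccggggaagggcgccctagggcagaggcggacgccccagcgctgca
Ldhb: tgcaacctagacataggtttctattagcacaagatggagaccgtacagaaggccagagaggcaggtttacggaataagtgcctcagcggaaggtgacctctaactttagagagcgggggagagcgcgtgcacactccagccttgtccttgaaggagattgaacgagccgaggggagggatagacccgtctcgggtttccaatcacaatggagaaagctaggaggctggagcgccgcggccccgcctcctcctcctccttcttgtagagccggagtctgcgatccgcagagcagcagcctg
Ldha: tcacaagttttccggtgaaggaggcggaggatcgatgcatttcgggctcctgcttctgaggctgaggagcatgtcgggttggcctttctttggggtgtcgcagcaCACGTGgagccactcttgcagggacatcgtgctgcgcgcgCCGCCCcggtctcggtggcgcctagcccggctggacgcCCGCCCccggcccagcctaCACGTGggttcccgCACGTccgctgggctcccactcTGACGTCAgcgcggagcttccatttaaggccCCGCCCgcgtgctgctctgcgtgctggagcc
Slc16a1: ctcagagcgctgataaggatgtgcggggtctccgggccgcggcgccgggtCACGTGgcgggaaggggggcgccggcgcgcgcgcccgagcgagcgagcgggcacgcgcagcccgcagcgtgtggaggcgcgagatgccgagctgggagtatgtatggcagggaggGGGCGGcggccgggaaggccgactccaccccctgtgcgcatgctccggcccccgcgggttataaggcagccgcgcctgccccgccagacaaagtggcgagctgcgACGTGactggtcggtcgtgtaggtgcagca
The Ldha window held 2 E-boxes and the Slc16a1 window 1, and the hypoxia core was also found once in the Oxct1 window. The E-box was found in 2 of the 10 member windows and in 7.15% of all 32851 windows, and the hypoxia core in 3 of the 10 and in 19.6% of all. GC boxes were in 6 of the 10 windows, against 35.7% of all windows, and the cyclic AMP core in 2 of the 10, both of Ldha, against 20.8%. The downstream Bdh1 window, which is not shown, was 1 of the 6 with a GC box. A site for oestrogen-related receptors (NAAGGTCA, found in 4.69% of all windows) was in 0 of the 10. A match describes these letters only, and nothing about binding was measured.

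Totals ran from 42139438 to 65285901 counts in mild cold and from 41619023 to 63946671 counts at room temperature. Mitochondrially encoded genes took 34.4% to 41.04% of the counts in mild cold and 26.2% to 31.6% at room temperature. Summed over 10 cardiomyocyte markers such as Myh6 and Tnnt2, TMM-scaled levels (CPM, a gene's count relative to the library total after trimmed-mean scaling) were 46480, 39100 and 43958 in mild cold 1 to 3, against 28231, 39602 and 27706 CPM in room temperature 1 to 3. All 10 of those markers had a positive log2 fold change, and all 8 fibroblast markers a negative one, with summed levels of 2003 to 3350 CPM in mild cold and 3344 to 5414 CPM at room temperature. Smooth muscle markers summed to 188 to 216 CPM in mild cold, below all 3 room temperature libraries, which reached 480 CPM. Atrial markers summed to at most 1.66 CPM in mild cold, and to 1730, 2.28 and 1.99 CPM in room temperature 1 to 3. So low a sum in 5 of the 6 libraries is not that of a whole heart with its atria. Adipose markers summed to 19.1, 19.4 and 42.8 CPM in mild cold 1 to 3, against 710.3, 46.7 and 93.7 CPM in room temperature 1 to 3. In mild cold 1 and 2 nearly all of this was Cidea, with Adipoq and Plin1 at no more than 0.0975 CPM. Cidea was at 19.0, 19.3 and 18.6 CPM in mild cold 1 to 3, against 161, 15.9 and 14.2 CPM in room temperature 1 to 3. Ucp1, the defining gene of brown fat, stood at 185 CPM in room temperature 1 and at no more than 0.0504 CPM in the other 5 libraries. Skeletal muscle markers summed to at most 2.33 CPM in mild cold, and to 6.06, 3.47 and 75.0 CPM in room temperature 1 to 3. Liver markers summed to 213, 7.37 and 361 CPM in mild cold 1 to 3, against 521, 91.3 and 202 CPM in room temperature 1 to 3. Most of each room temperature sum was Cyp2e1 (512, 59.2 and 202 CPM, against 21.7, 1.02 and 91.5 CPM in mild cold 1 to 3). Of the 7 liver markers, however, 6 had a positive log2 fold change. Albumin (Alb) was at 118, 3.43 and 188 CPM in mild cold 1 to 3, against 6.76, 21.1 and 0.136 CPM in room temperature 1 to 3. These markers moved with the groups or with single libraries, and their part in the results was not tested. In bulk hearts, fewer cells of a type and less RNA per cell cannot be told apart.

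**Figure D1:**
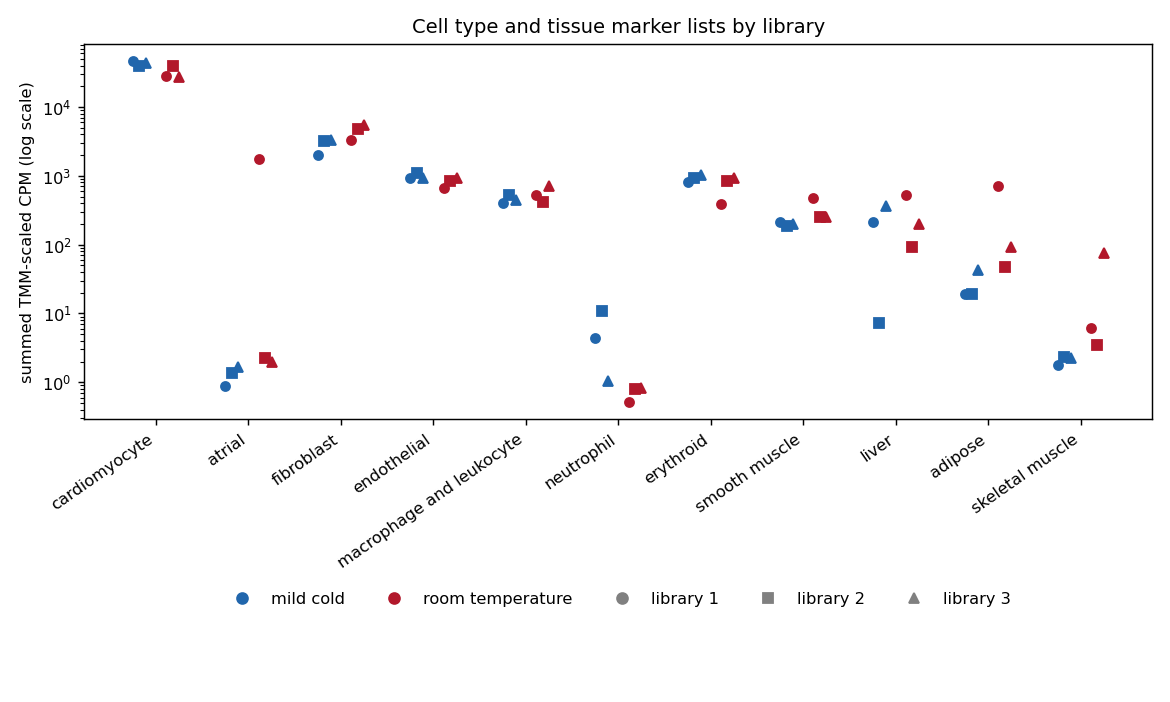
Summed TMM-scaled CPM (log scale) of each marker list, with 1 point per library, mild cold in blue to the left and room temperature in red to the right of each list. The atrial sum of room temperature 1 (1730 CPM) stands far above the other 5 libraries, and its adipose sum (710.3 CPM) is the highest of the 6.

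Of the 8 members, 0 passed an adjusted p of 0.05 in edgeR's quasi-likelihood test (0% of the 16757 genes tested passed). By unadjusted p under 0.05, 3 members (Mpc2, Bdh1 and Ldhb) were higher in mild cold, where 9.11% of all genes were, and 0 were lower, where 10.6% of all genes were (19.7% in either direction). At an adjusted p of 0.1, Bdh1 and Mpc2 were the 2 members higher in mild cold, as were 1.01% of all genes. Every mild cold library lay above every room temperature library for 4 members (Bdh1, Mpc2, Ldhb and Ldha), where 12% of all genes did so, and 0 members lay wholly below, where 13.1% did (25.1% in either direction). The members had a median log2 fold change of 0.36, and 7 of the 8 were positive. All genes tested had a median of -0.02, and 47.7% were positive. The DESeq2 Wald test, run as an alternative, called Bdh1, Mpc2 and Ldhb at an adjusted p of 0.05 (3 of 8, where 3.12% of its genes were called higher), so whether these genes pass depends on the test. Without room temperature 1, the unadjusted edgeR p was 0.000647 for Bdh1, 0.00189 for Mpc2 and 0.0455 for Ldhb. In that fit 0 members passed an adjusted p of 0.05, and the share of all genes under an unadjusted 0.05 was not computed. DESeq2 without that library, a check added after the data were seen, called 2 (Bdh1 and Mpc2, with 2.26% of genes called higher) and gave Ldhb an adjusted p of 0.13.

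**Figure D2:**
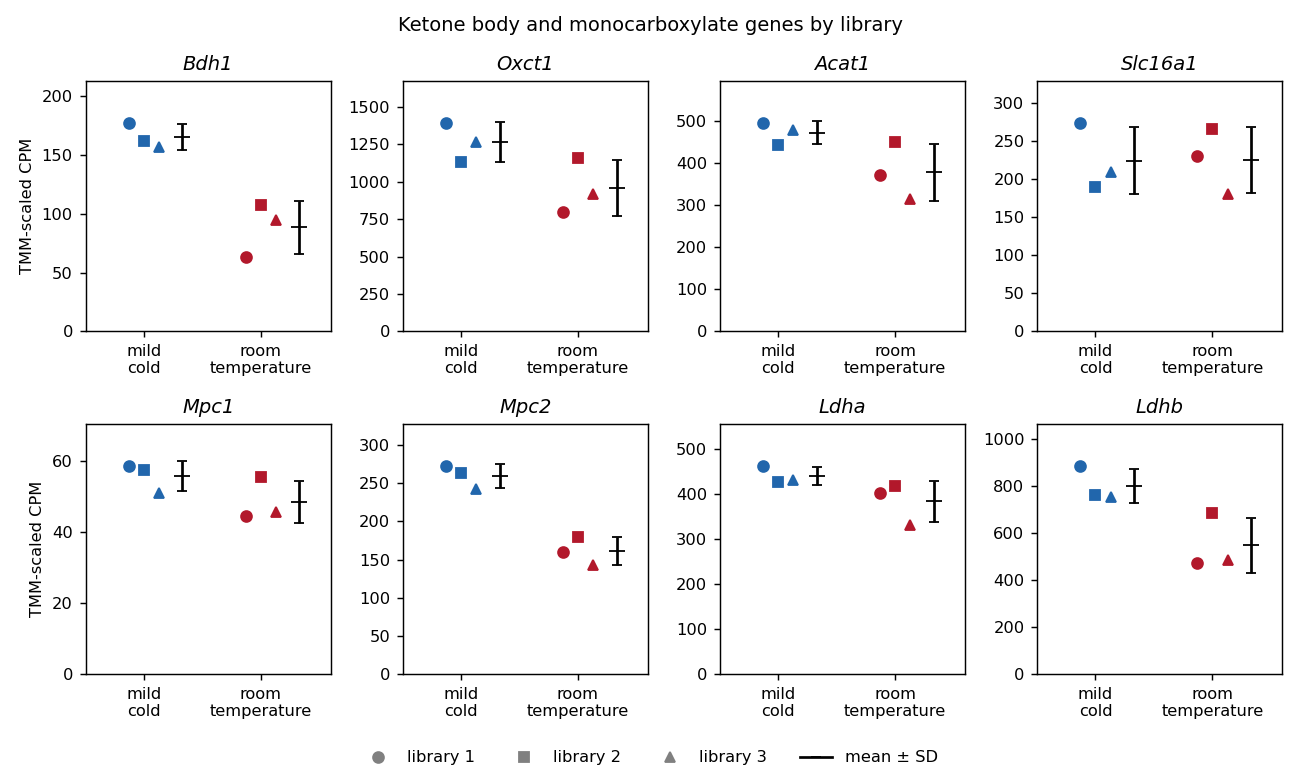
TMM-scaled CPM of the 8 members, with mild cold to the left of room temperature, 1 symbol per library, and the mean ± SD (n = 3) in black. The groups are apart for Bdh1, Mpc2, Ldhb and Ldha, and overlap for Oxct1, Acat1, Mpc1 and Slc16a1.

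Bdh1 (ENSMUSG00000046598, chromosome 16), which encodes the first enzyme of ketone oxidation, had the largest fold change of the members. It had 178, 162 and 157 CPM in mild cold 1 to 3, against 62.9, 107.5 and 94.6 CPM in room temperature 1 to 3. The groups did not overlap, and the lowest mild cold library was 1.46 times the highest room temperature library. Means were 165 ± 10.8 CPM in mild cold, against 88.4 ± 23.0 CPM at room temperature (SD, n = 3 each), a log2 fold change of 0.90 (SE 0.19, 1.87-fold, edgeR adjusted p = 0.0998). DESeq2 gave an adjusted p of 0.000184 for the same gene. Of the fits that left out 1 library, the one without room temperature 1, the lowest library, gave the smallest log2 fold change, 0.71 (edgeR adjusted p = 0.102). Of its exon bases, 13.7% were shared with the annotated gene Gm15743, which held at most 67 counts in a library.

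Oxct1 (ENSMUSG00000022186, chromosome 15), the transferase that commits acetoacetate to oxidation in tissues outside the liver, had the highest counts of the 8. It was at 1395.5, 1132 and 1269.5 CPM in mild cold 1 to 3, against 795, 1162 and 919 CPM in room temperature 1 to 3. Mild cold 2 lay below room temperature 2, so the groups overlapped. The log2 fold change was 0.40 (SE 0.17, 1.32-fold, edgeR adjusted p = 0.259). Acat1 (ENSMUSG00000032047, chromosome 9), the matrix thiolase, had 495, 442 and 477 CPM in mild cold 1 to 3, against 371, 448 and 313 CPM in room temperature 1 to 3. Room temperature 2 was again above mild cold 2, and the log2 fold change was 0.32 (SE 0.15, 1.25-fold, edgeR adjusted p = 0.289). Of the exon bases of Oxct1, 12.6% were shared with BC037032, which held at most 455 counts in a library.

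Within each library the count of Oxct1 was divided by that of Bdh1, a ratio that does not depend on how libraries are scaled. It was 7.86, 7.00 and 8.09 in mild cold 1 to 3, against 12.6, 10.8 and 9.71 in room temperature 1 to 3, and the groups did not overlap. These are ratios of counts and are not per length, so only their difference between groups is read. On the log2 scale it was 2.93 ± 0.11 in mild cold, against 3.46 ± 0.19 at room temperature, a difference of -0.53 (SD, n = 3 per group, exact permutation p = 0.1, 2-sided, the smallest that 10 splits allow). Leaving out any single library kept it between -0.61 and -0.42. The fold change of Bdh1 was thus the larger of the pair in these libraries.

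Slc16a1 (ENSMUSG00000032902, chromosome 3), the plasma membrane transporter of lactate, pyruvate and ketone bodies, was the 1 member with no positive fold change. Its levels were 274, 189 and 209 CPM in mild cold 1 to 3, against 230, 266 and 180 CPM in room temperature 1 to 3. The highest and the second highest library belonged to different groups. Means were 224 ± 44.1 CPM in mild cold, against 225 ± 43.2 CPM at room temperature (SD, n = 3 each), and the log2 fold change was -0.01 (SE 0.19, edgeR adjusted p = 0.989). With this spread, a difference of the size of the standard error in either direction was not detectable. The sign was positive with any of 4 libraries left out, at 0.10 when this was mild cold 2, 0.04 for mild cold 3, 0.01 for room temperature 1 and 0.14 for room temperature 2.

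Mpc2 (ENSMUSG00000026568, chromosome 1), a subunit of the mitochondrial pyruvate carrier, had the smallest p of the members, at rank 87 of the 16757 genes. It was at 272, 263.5 and 242 CPM in mild cold 1 to 3, against 160.2, 179 and 143 CPM in room temperature 1 to 3. The lowest mild cold library was 1.35 times the highest room temperature library. Means were 259 ± 15.7 CPM in mild cold, against 161 ± 18.1 CPM at room temperature (SD, n = 3 each), a log2 fold change of 0.69 (SE 0.12, 1.61-fold, edgeR adjusted p = 0.0878). It passed without an expression filter (edgeR adjusted p = 0.0438, with 184 of 29942 genes passing). It also passed in the DESeq2 Wald test (adjusted p = 3.29e-05, with 3.12% of genes called higher). At the threshold of 0.05 it passed in no other setting, with 0.086 in limma-voom and 0.3265 in edgeR without the deepest library of each group. Leaving out single libraries kept the log2 fold change between 0.61 and 0.79, with edgeR adjusted p from 0.0893 to 0.235.

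Mpc1 (ENSMUSG00000023861, chromosome 17), the partner subunit, had 58.6, 57.6 and 50.9 CPM in mild cold 1 to 3, against 44.5, 55.4 and 45.6 CPM in room temperature 1 to 3. Room temperature 2 lay above mild cold 3, and the log2 fold change was 0.20 (SE 0.11, 1.15-fold, edgeR adjusted p = 0.376). Its counts are uncertain, since the annotated copy Mpc1-ps is 100% identical over 261 coding bases and held 1767, 1068 and 1214 counts in mild cold 1 to 3 and 1047, 1077 and 1367 counts in room temperature 1 to 3. With Mpc1-ps and 2 other copies (Gm20428 and Gm8219) added, copies made up 29.0% to 37.6% of the summed count and the log2 difference was 0.27 (exact permutation p = 0.1). The gene 4930506C21Rik shares 23.1% of the exon bases of Mpc1 and held at most 116 counts in a library.

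The ratio of Mpc1 to Mpc2 counts was 0.215, 0.219 and 0.210 in mild cold 1 to 3, against 0.278, 0.309 and 0.319 in room temperature 1 to 3. The highest mild cold ratio lay below the lowest ratio at room temperature, and the 3 mild cold ratios were close together. On the log2 scale the ratio was -2.22 ± 0.03 in mild cold, against -1.73 ± 0.10 at room temperature, a difference of -0.49 (SD, n = 3 each, exact permutation p = 0.1, the smallest possible). It lay between -0.55 and -0.45 with any single library left out, and at -0.42 with the copies added to Mpc1. Of the carrier's subunits, Mpc2 thus had the larger fold change in these libraries.

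Ldhb (ENSMUSG00000030246, chromosome 6), the heart-type lactate dehydrogenase subunit, was at 887, 764 and 753 CPM in mild cold 1 to 3, against 475, 686 and 487 CPM in room temperature 1 to 3. All mild cold libraries were higher, though room temperature 2 lay close below them. Means were 801.5 ± 74.2 CPM in mild cold, against 549 ± 118 CPM at room temperature (SD, n = 3 each), a log2 fold change of 0.55 (SE 0.17, 1.46-fold, edgeR adjusted p = 0.166, DESeq2 adjusted p = 0.021). Ldha (ENSMUSG00000063229, chromosome 7), the muscle-type subunit and a textbook target of HIF factors and MYC, had 462.5, 426 and 430.3 CPM in mild cold 1 to 3, against 402, 418 and 332 CPM in room temperature 1 to 3. The groups did not overlap, but the lowest mild cold library was only 1.02 times the highest room temperature library. The log2 fold change was 0.20 (SE 0.12, 1.15-fold, edgeR adjusted p = 0.426). Ldha has 12 annotated copies with at least 90% identity over at least 200 coding bases, which together added at most 0.163% to its count. For Ldhb, the copy Gm5514 is 98.0% identical over 1002 bases and added at most 0.277%. Reads that fit several places may have been split or dropped before counting, which these shares do not show.

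Counts of Ldhb relative to Ldha were 1.92, 1.79 and 1.75 in mild cold 1 to 3, against 1.18, 1.64 and 1.47 in room temperature 1 to 3. The groups were apart, with room temperature 2 nearest to mild cold. On the log2 scale the ratio was 0.86 ± 0.07 in mild cold, against 0.50 ± 0.24 at room temperature, a difference of 0.36 (SD, n = 3 each, exact permutation p = 0.1, the smallest possible). The difference was 0.32, 0.37 and 0.39 without mild cold 1, 2 and 3, each with an exact permutation p of 0.2. Without room temperature 1, the library with the highest atrial and adipose sums, the difference was 0.23. Adipose transcripts were not confined to that library.

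**Figure D3:**
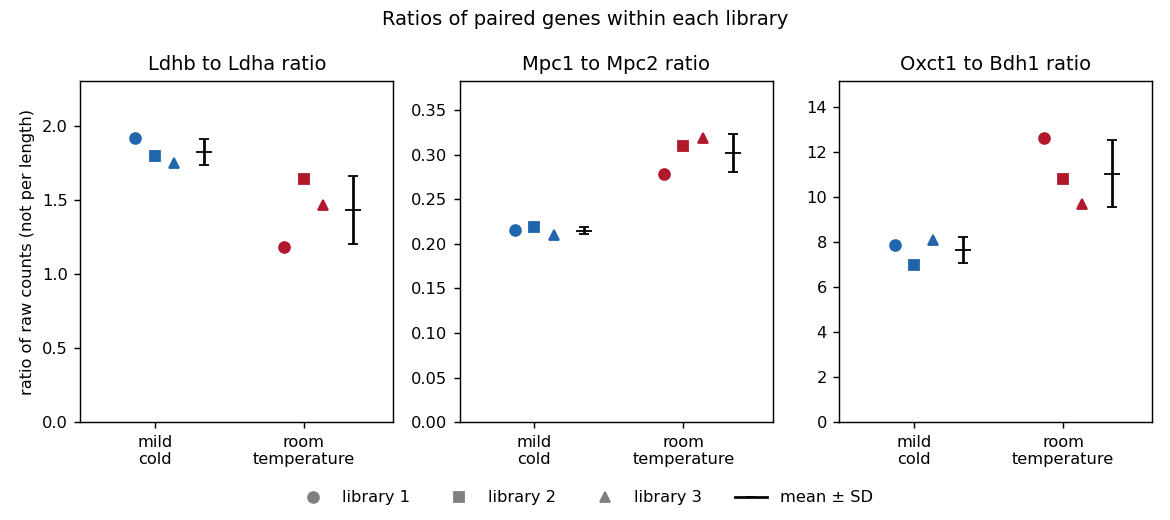
Ratios of raw counts within each library for Ldhb to Ldha, Mpc1 to Mpc2 and Oxct1 to Bdh1, with mild cold to the left, 1 symbol per library, and the mean ± SD (n = 3) in black. In each panel the groups are apart, and Mpc1 to Mpc2 in mild cold has the narrowest spread, 0.210 to 0.219.

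Because the cardiomyocyte markers had positive fold changes, each member was also set against their summed count, an alternative chosen after the data were seen. Relative to that sum, all genes tested had a median log2 difference of -0.47. Bdh1 stood at 3.82, 4.14 and 3.57 per 1000 cardiomyocyte marker counts in mild cold 1 to 3, against 2.23, 2.72 and 3.42 in room temperature 1 to 3. These groups did not overlap, with a log2 difference of 0.48 (exact permutation p = 0.1), and 0.967% of all genes lay wholly higher in mild cold on this scale. Mpc2 kept a positive difference (0.24) and so did Ldhb (0.11), but with overlapping groups. Differences were negative for Oxct1 (-0.04), Acat1 (-0.12), Mpc1 (-0.25), Ldha (-0.25) and Slc16a1 (-0.46). Slc16a1 was at 5.89, 4.85 and 4.75 per 1000 in mild cold 1 to 3, against 8.14, 6.71 and 6.48 in room temperature 1 to 3, wholly lower, as were 33.9% of all genes. Scaled to library totals alone, which moved the median of all genes to -0.27, Bdh1 was at 0.66, Mpc2 at 0.44, Ldhb at 0.31, Oxct1 at 0.16 and Acat1 at 0.08, while Mpc1 (-0.05), Ldha (-0.05) and Slc16a1 (-0.24) were negative. Another scaling shifts all genes of a library together, so the order of the members is nearly fixed by construction and only their place relative to 0 is read.

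**Figure D4:**
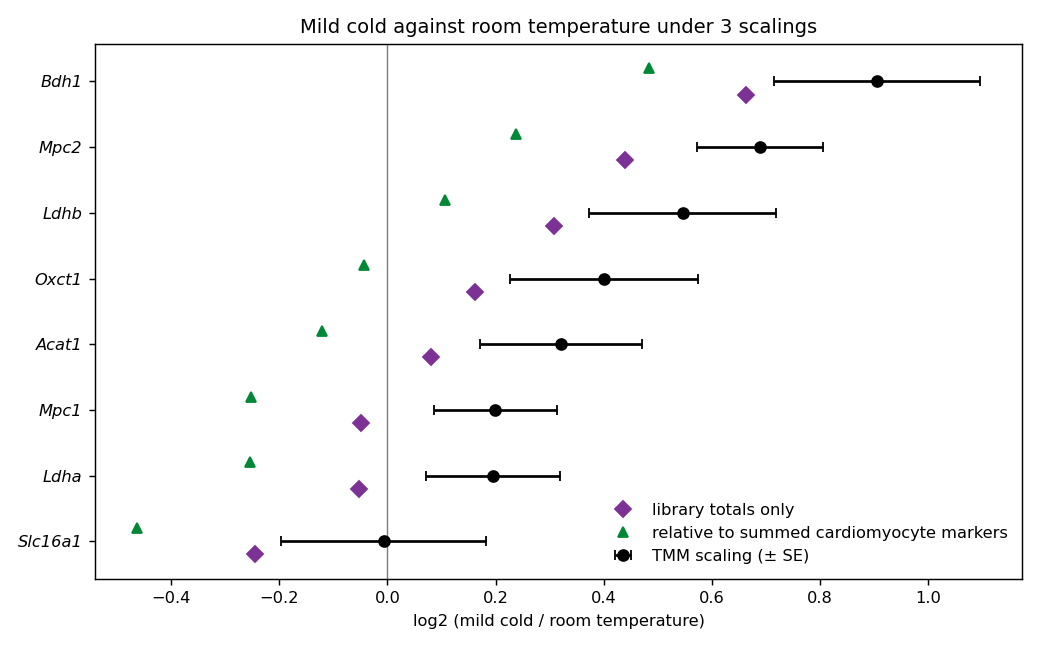
Log2 of mild cold over room temperature for the 8 members with TMM scaling (black, ± SE), with library totals only (purple) and relative to the summed cardiomyocyte markers (green). Bdh1, Mpc2 and Ldhb are positive on each scale (Bdh1 0.90, 0.66 and 0.48), Oxct1, Acat1, Mpc1 and Ldha lie on both sides of 0 depending on the scale, and Slc16a1 is below 0 on each (-0.01, -0.24 and -0.46).

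Levels can be set against each other between genes only per length. Divided by the union of annotated exons, Ldhb averaged 510.5 ± 47.3 CPM per kilobase in mild cold and 349.8 ± 75.4 at room temperature, followed by Oxct1 at 342 ± 35.6 in mild cold and 259 ± 50.4 at room temperature (SD, n = 3 each). The ranges of Ldhb and Oxct1 were apart in mild cold and overlapped at room temperature. Ldha (133 ± 6.02 in mild cold and 116 ± 13.9 at room temperature) and Acat1 (125 ± 7.10 in mild cold and 100.4 ± 18.1 at room temperature) came next, and their ranges overlapped in both groups. Slc16a1, Bdh1, Mpc2 and Mpc1 lay between 26.7 and 50.6 CPM per kilobase in mild cold and between 21.9 and 50.8 at room temperature. On this length, Bdh1 was above both carrier subunits without overlap in mild cold, while at room temperature Bdh1, Mpc1 and Mpc2 overlapped. The Mpc1 level here leaves out its annotated copies, 29.0% to 37.6% of the summed count, so its place against Bdh1 and Mpc2 is uncertain. The order depends on the length used. The median length of annotated coding transcripts was also used, chosen after the data were seen. By means on that length, Ldha stood above Oxct1 and Mpc2 above Acat1 and Bdh1 in both groups, while Ldhb was the highest and Slc16a1 the lowest. At room temperature the ranges of Ldha and Oxct1 overlapped (415.6 to 523.8 against 301.8 to 441.1 CPM per kilobase). So did those of Slc16a1 with Bdh1 and with Mpc1.

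For each member, the genes most like it over the 6 libraries were taken as those with the smallest mean absolute difference in centred log2(CPM + 1), among 12327 genes with a mean of at least 2 CPM. Mpc2 was nearest to Ndufs7, a subunit of respiratory complex I (mean difference 0.04), and Pla2g12a, a secreted phospholipase (0.05). Ldhb was nearest to Fgf13 (0.02) and Ndufaf6 (0.03), an assembly factor of complex I. The nearest genes of Oxct1 were Exoc6 (0.03) and Tecr (0.04), and those of Acat1 were Vdac3-ps1 (0.01) and Oxnad1 (0.02). Slc16a1 was nearest to Atxn1 (0.03) and Ankrd33b (0.04), Mpc1 to Lamtor1 and Polr2e (both 0.03), and Ldha to D3Ertd751e and Cdpf1 (both 0.02). Bdh1 had the most distant neighbours, Magix (0.07) and Tesc (0.09).

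The other genes of the pathway were 35 in 4 lists, of which 26 were tested and 0 passed an adjusted p of 0.05 over all genes in edgeR. By unadjusted p under 0.05, 4 were higher and 6 lower in mild cold, against 9.11% and 10.6% of all genes, and their median log2 fold change was -0.28. The DESeq2 Wald test called 4 of them, Bsg higher and Hcar1, Aacs and Emb lower, where it called 7.15% of its genes in either direction. Without room temperature 1, a check added after the data were seen, it again called Bsg (DESeq2 adjusted p = 0.00536), Hcar1 (0.029) and Aacs (0.000202), and Gpt2 (0.00237) in place of Emb (0.18), where 5.67% of its genes were called.

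Among the 9 transport genes 7 were tested, with 1 higher and 1 lower at an unadjusted p under 0.05 (9.11% and 10.6% of all genes). Bsg, basigin, the chaperone that brings MCT1 to the plasma membrane, had 1013, 957.5 and 847 CPM in mild cold 1 to 3, against 519, 690.1 and 594 CPM in room temperature 1 to 3. Its groups did not overlap (log2 fold change 0.64, SE 0.15, edgeR adjusted p = 0.107), and those of its client Slc16a1 did. Emb, embigin, a relative of basigin that also escorts monocarboxylate transporters, was at 2.70, 3.83 and 4.09 CPM in mild cold 1 to 3, against 15.1, 3.52 and 10.4 CPM in room temperature 1 to 3 (log2 fold change -1.46, edgeR adjusted p = 0.173). Room temperature 2 lay among the mild cold libraries there. The other 5 transporters tested had negative log2 fold changes, from -1.71 for Slc16a11 to -0.25 for Slc16a7. In edgeR without room temperature 1, Slc16a11 was at -0.31 and Slc16a7 at 0.26, while Slc16a3 (-0.43), Slc16a6 (-0.33) and Slc16a8 (-0.46) stayed negative.

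Of the 8 tested enzymes of lactate and pyruvate, 3 were higher and 1 (Pcx) lower at an unadjusted p under 0.05 (9.11% and 10.6% of all genes). Pkm, which makes pyruvate, stood at 681 ± 61.9 CPM in mild cold, against 509 ± 76.4 CPM at room temperature (SD, n = 3 each, log2 fold change 0.42, edgeR adjusted p = 0.192). Me3, mitochondrial malic enzyme, was at 45.5 ± 4.58 CPM in mild cold, against 34.2 ± 6.24 CPM at room temperature, and Gpt2, mitochondrial alanine transaminase, at 37.8 ± 8.59 CPM in mild cold, against 24.8 ± 7.41 CPM at room temperature (SD, n = 3 per group, edgeR adjusted p = 0.199 and 0.229). Pcx, pyruvate carboxylase, was at 21.8, 17.8 and 30.8 CPM in mild cold 1 to 3, against 160, 32.5 and 38.4 CPM in room temperature 1 to 3. Its log2 fold change was -1.71 (edgeR adjusted p = 0.194), and -0.60 without room temperature 1. In the list of extramitochondrial ketone and acetoacetyl-CoA genes 4 of 6 were tested. By unadjusted p under 0.05, 0 of them were higher and 1 (Aacs) lower, against 9.11% and 10.6% of all genes. Aacs, the cytosolic acetoacetyl-CoA synthetase that feeds ketones into lipid synthesis, was at 4.40, 4.16 and 4.82 CPM in mild cold 1 to 3, against 36.1, 8.31 and 9.85 CPM in room temperature 1 to 3. Its log2 fold change was -2.02 (edgeR adjusted p = 0.135), and -1.03 without room temperature 1, the library with Ucp1 at 185 CPM. Every mild cold library also lay below room temperature 2 and 3 for Aacs. The part of brown fat transcripts in the Aacs values was not tested.

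Receptor transcripts were scarce. Of the 7 tested receptors and regulators, 3 were lower at an unadjusted p under 0.05 and 0 higher, against 10.6% and 9.11% of all genes. Hcar1, the lactate receptor of fat cells, had 8, 16 and 28 counts in mild cold 1 to 3, against 272, 48 and 210 counts in room temperature 1 to 3 (log2 fold change -2.98, SE 0.76, edgeR adjusted p = 0.12). Hcar2, the receptor for beta-hydroxybutyrate and niacin, had 0, 2 and 10 counts in mild cold 1 to 3, against 184, 12 and 118 counts in room temperature 1 to 3 (log2 fold change -4.32, SE 1.27, edgeR adjusted p = 0.15). With 1 library left out it ran from -6.33 (without mild cold 3) to -3.31 (without room temperature 1). In both genes room temperature 2 was nearest to mild cold, and the summed adipose markers were also lowest there within the room temperature group, as were Adipoq and Plin1 but not Cidea. The part of adipose transcripts in these values was not tested. Hif1a, the oxygen-regulated subunit of hypoxia-inducible factor, stood at 78.0 ± 6.46 CPM in mild cold, against 92.5 ± 4.23 CPM at room temperature (SD, n = 3 per group, log2 fold change -0.25, edgeR adjusted p = 0.219).

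**Figure D5:**
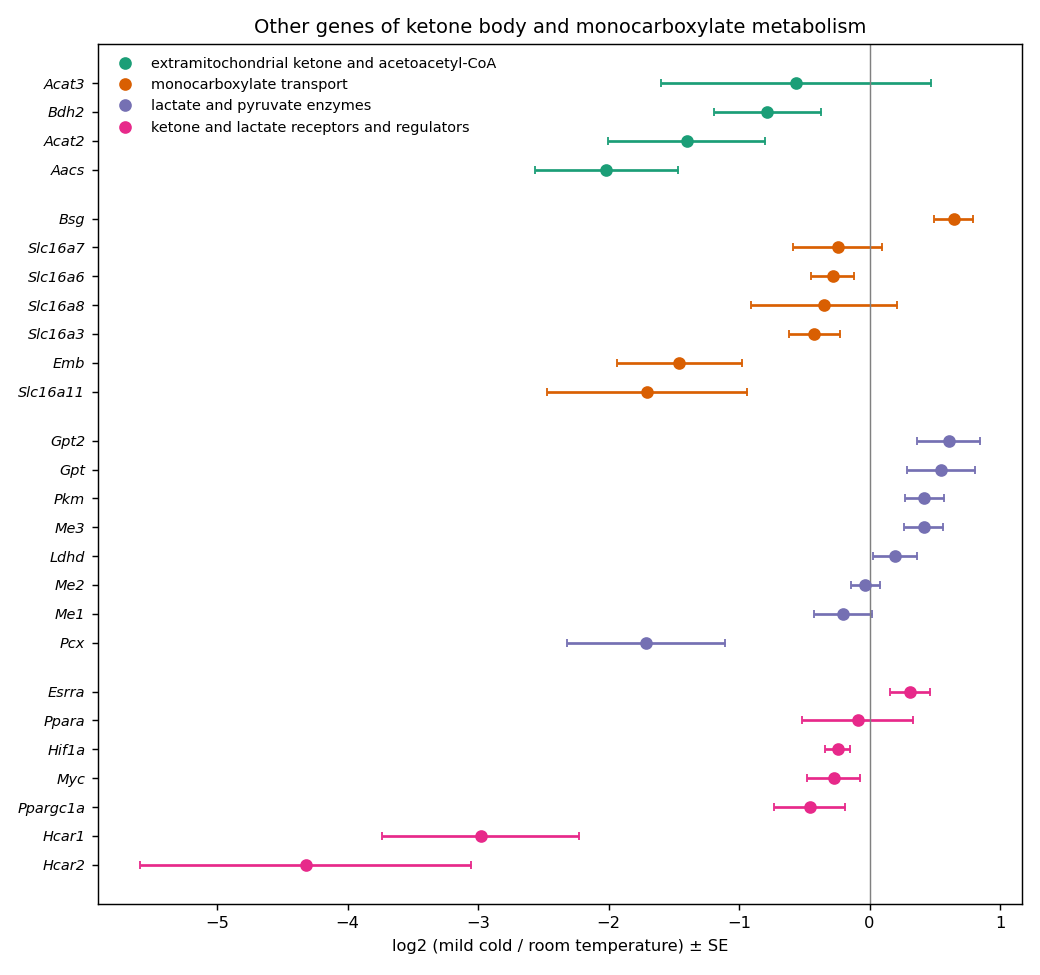
Log2 of mild cold over room temperature (± SE) for the 26 tested genes of the pathway outside the 8 members, coloured by list. Bsg (0.64) is the highest, and Hcar2 (-4.32) and Hcar1 (-2.98) are the lowest.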

How the data were processed

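RNA was measured in 6 heart libraries, 3 per group, grouped by their titles. The authors deposited unnormalised counts per gene, made with featureCounts 2.0.3 and build GRCm39, per the submitters' processing notes. Which aligner, annotation, strand setting and read-pair handling were used is not given in the sources used here. Of counts from 1 to 10, 71.9% to 78.3% per library were even, as when both mates are counted, so fragments can be fewer than counts. Symbols, exon lengths and overlaps came from GENCODE M21 (55141 of 55401 IDs matched), on another build, so no coordinates were taken from it. Near-identical copies were sought with BLAST 2.17.0 among M21 transcripts.

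Genes were tested with edgeR 4.0.16 (R 4.3.3): default filter by group, TMM scaling, quasi-likelihood test, 2-sided, Benjamini-Hochberg over all 16757 genes, threshold 0.05. The test was checked on simulated data. Ratios used log2(count + 0.5) and an exact permutation test. Alternatives included DESeq2 1.42.0 and limma-voom (limma 3.58.1). Named were all 8 members, pathway genes at an unadjusted p under 0.05 (otherwise the 2 smallest), and 2 nearest genes per member. Other pathway and marker genes named were chosen after their values were seen. Members, lists and tests were chosen with earlier results of these data known. Some listed genes are not reported here. No pair of libraries held identical values.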

Additional observations from a re-analysis of the deposited data

How the results depend on the processing

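Under DESeq2 size factors, upper-quartile scaling, TMM scaling without mitochondrially encoded and haemoglobin genes, at least 1 CPM in 3 libraries, limma-voom, robust estimation, and without the deepest library of each group, 0 genes passed. Over all genes, 356 passed with library totals only (10 higher and 346 lower), 184 without an expression filter, 1252 in the DESeq2 Wald test, 1 with the replicate block and 396 at an adjusted p of 0.1. With single libraries left out, 0 to 2 genes passed (2 without room temperature 1), and 0 members and 0 other pathway genes did. Members past the threshold were 1 without an expression filter (Mpc2), 3 in DESeq2 and 2 at an adjusted p of 0.1 (Bdh1 and Mpc2). Other pathway genes were 1 with library totals only (Hif1a) and 4 in DESeq2. The cause of these differences was not tested. Reversed signs were those of Slc16a1 (0.0043 without mitochondrially encoded and haemoglobin genes, 0.0027 in DESeq2, and -0.17 to 0.14 over single omissions), and with library totals only those of Mpc1 (-0.049) and Ldha (-0.053). Relative to cardiomyocyte markers, an alternative added later, Oxct1 (-0.043), Acat1 (-0.12), Mpc1 (-0.25) and Ldha (-0.25) reversed. Ratios lay between 0.23 and 0.47 for Ldhb to Ldha, -0.55 and -0.45 for Mpc1 to Mpc2, and -0.61 and -0.42 for Oxct1 to Bdh1 over single omissions.

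Replicate numbers are shared by the groups, but deviations of same-numbered libraries correlated at 0.118, -0.135 and -0.007 for numbers 1 to 3, so the numbers were not taken as pairs. With the replicate block, edgeR's adjusted p was 0.152 for Bdh1 and 0.121 for Mpc2, 0 members and 0 other pathway genes passed, and the 3 ratio differences were as without it (0.36, -0.49 and -0.53, exact sign-flip p = 0.25, the smallest that 3 pairs allow). Mild cold 1, 2 and 3 correlated best with room temperature 2 (0.282), 3 (0.398) and 1 (0.117). Only room temperature 1 correlated best with its own number (0.1177, against 0.117 with mild cold 3).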

Other observations

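Several of the 35 other pathway genes were left out by the filter on low counts. Slc5a8, a sodium-coupled monocarboxylate transporter, had 4, 2 and 0 counts in mild cold 1 to 3, against 240, 0 and 0 counts in room temperature 1 to 3, the first of which also held the atrial and brown fat transcripts. Pklr had at most 23 counts in a library, Fgf21 at most 6 and Ldhc at most 4. Oxct2a, Oxct2b, Slc5a12, Ldhal6b and Ffar3 had 0 counts in all 6 libraries. For counting error only, a count of 0 allows about 3 fragments per library, which are more than 3 counts where both mates are counted.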
